A study of Mus musculus with 2 samples.

Results

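The genes of the fibroblast growth factor (FGF) pathway described here are 21 FGF genes, 5 receptor genes, 7 feedback inhibitors of the pathway and 2 transcription factors that it induces. They were chosen by name from the family and its best known feedback genes, 35 in all, and matched by symbol to Ensembl gene identifiers of the deposited tables. Of the 35 members, 34 had a row among 43346 Ensembl gene identifiers, and Spry3 is not analysed here.

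Hindbrain tissue came from B6NCrl mice at embryonic day 16.5, from stock labelled healthy, with no mutation or treatment named. There was a single group of 2 biological replicates, each a pool of male and female embryos. Replicate 2 pooled 37 embryos, and the labels do not state the size of the other pool. Total RNA longer than 200 bases was sequenced, with 10 ng of RNA entering each library and spike-in RNAs added.

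Most FGFs are secreted signalling proteins. Paracrine FGFs act on nearby cells together with heparan sulfate, endocrine FGFs travel further and need a Klotho protein as coreceptor, and the intracellular FGFs are not secreted and bind voltage-gated sodium channels. A bound receptor tyrosine kinase activates the RAS, RAF, MEK and ERK kinases, which induce Etv4 and Etv5 and also the inhibitors Sprouty, Spred and Dusp6, so that these genes are widely used as a readout of the pathway. In the early embryo FGF8 from the midbrain-hindbrain boundary patterns the cerebellum and midbrain, and later FGF signals act on progenitors, glia and granule neurons.

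The libraries held 42467811 and 42017008 expected counts, of which spike-ins took 2.18% and 1.59%. Expected counts are reads that the authors' model assigned to a gene. Levels are TPM, a relative abundance corrected for length, given for replicate 1 and then replicate 2 or as mean ± SD with n = 2. A single group allows no test between conditions, so no p is printed. All 12 hindbrain Hox genes listed as markers reached 1 TPM in both replicates. The pools differed in markers of other tissues: the summed level of 8 forebrain markers was 19.5 TPM in replicate 1 and 0.39 TPM in replicate 2, that of 6 skeletal muscle markers was 245 and 11.9 TPM, and that of 5 cartilage markers was 46.2 and 12.1 TPM. In replicate 2 the forebrain marker Emx1 was at 0. The part of these tissues in any member's level was not tested. In bulk tissue, fewer cells of a type and less RNA per cell cannot be told apart.

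The exons that set which ligands a receptor binds are shown because the receptor results turn on them. In Fgfr1, Fgfr2 and Fgfr3 the second part of the third immunoglobulin (Ig) domain is encoded by either of a pair of mutually exclusive exons, IIIb or IIIc. IIIb receptors are known from epithelia and bind FGFs of the Fgf7 subfamily, while IIIc receptors are known from mesenchyme and neural tissue and bind those of the Fgf4, Fgf8 and Fgf9 subfamilies. The sequences are from GENCODE M21 transcripts on GRCm38. Printed are the IIIc exon of Fgfr3, the most abundant receptor, and the IIIb exon of Fgfr2. Only Fgfr2 had transcripts with IIIb but not IIIc in both replicates. The first lies at chr5:33732117-33732261 (plus strand) and has 145 coding bases. The other lies at chr7:130199758-130199905 (minus strand) and has 148. In the IIIb exon, capitals mark bases identical to the IIIb exon of Fgfr1 in a global alignment, and the IIIc exon has none marked.
Fgfr3 IIIc: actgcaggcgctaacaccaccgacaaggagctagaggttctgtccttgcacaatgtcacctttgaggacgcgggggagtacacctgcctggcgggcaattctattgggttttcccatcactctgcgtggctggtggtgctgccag
Fgfr2 IIIb: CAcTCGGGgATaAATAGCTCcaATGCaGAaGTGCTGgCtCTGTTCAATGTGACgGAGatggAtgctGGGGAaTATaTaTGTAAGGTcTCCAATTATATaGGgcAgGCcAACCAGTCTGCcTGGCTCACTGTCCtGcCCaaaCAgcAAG
The IIIb exons of Fgfr1 and Fgfr2 matched at 113 of 152 aligned positions (74.3%), whereas the IIIb and IIIc exons of Fgfr3 matched at 81 of 160 (50.6%).

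Of the 34 members, 24 (70.6%) reached 1 TPM in both replicates, and the other 10 were below it in both. Among all protein-coding genes the share was 63.5% (13630 of 21474), so the members' share was near the background. The members above the minimum were 7 of 15 paracrine ligands, 1 of 3 endocrine ligands, all 3 intracellular FGFs, all 5 receptors, and all 8 feedback inhibitors and target factors that had a row. The median level was 0.603 TPM over the 18 ligands and 12.3 TPM over the 8 feedback inhibitors and target factors.

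**Figure D1:**
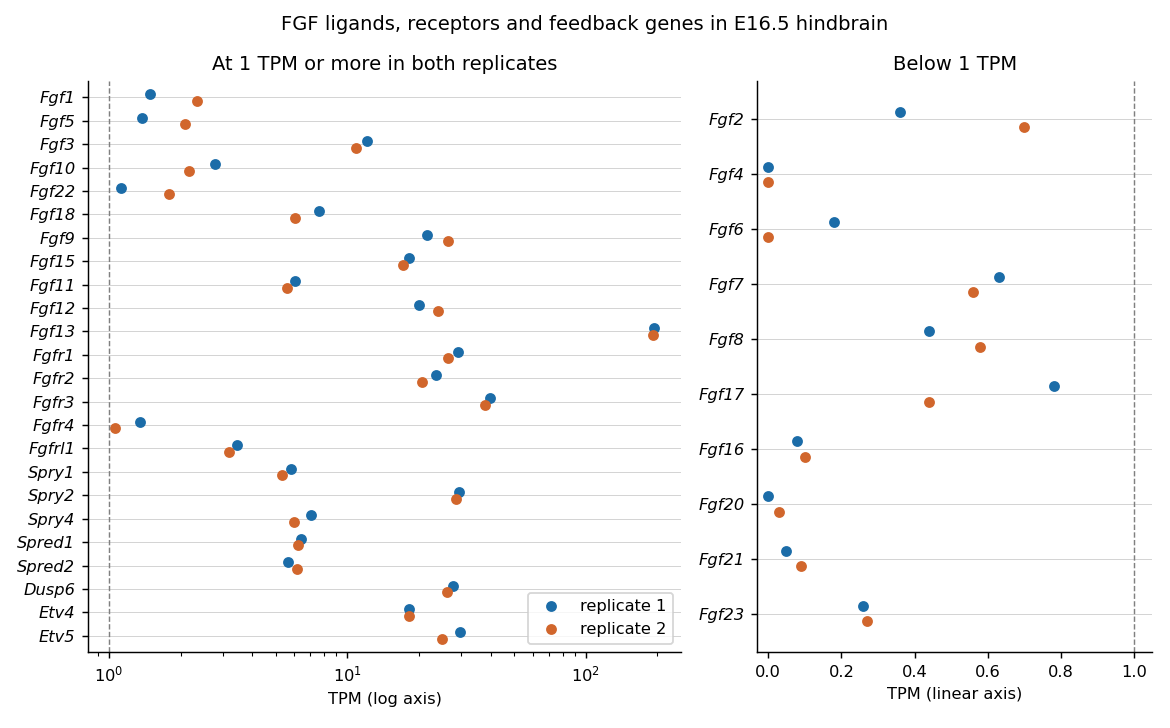
TPM of each member in replicate 1 (blue) and replicate 2 (orange), on a log axis for the 24 members at 1 TPM or more in both replicates and on a linear axis for the 10 below. The dashed line marks 1 TPM, and Fgf13 stands apart at 194 and 191 TPM.

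Among the secreted ligands Fgf9, Fgf15, Fgf3 and Fgf18 made up most of the measured RNA. The summed level of the 18 ligands was 69.0 and 71.8 TPM. Fgf9 (ENSMUSG00000021974.10, chromosome 14, 58070547 to 58112720), a paracrine ligand that neurons are known to make, stood highest at 21.6 and 26.5 TPM and held 34.1% ± 3.94 of the ligand TPM. Fgf15 (ENSMUSG00000031073.5, chromosome 7, 144896531 to 144900953), the mouse counterpart of human FGF19, followed at 18.1 and 17.2 TPM, or 25.1% ± 1.64. Fgf3 (ENSMUSG00000031074.10, chromosome 7, 144838083 to 144844436), a ligand known for inducing the inner ear, had 12.1 and 10.9 TPM, or 16.4% ± 1.69. Fgf18 had 7.59 and 6.06 TPM, or 9.72% ± 1.82.

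Fgf3, Fgf4 and Fgf15 are neighbours on chromosome 7. Fgf3 and Fgf4 lie 2.93 kb apart and Fgf4 and Fgf15 lie 31.3 kb apart, a closeness looked up after the levels were seen. The outer genes were among the highest ligands, while Fgf4, a ligand of early embryos and limb buds, had 0 counts in both libraries, which allows up to 3 counts in each. Fgf6 and Fgf23, 44.7 kb apart on chromosome 6, were both below 1 TPM.

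The other ligands above the minimum were low. Fgf10, which acts through IIIb receptors in organ budding, had 2.78 and 2.17 TPM (280 and 224 counts). Fgf1, a ligand that binds all receptor forms, had 1.48 and 2.35 TPM (139 and 231 counts). Fgf5, best known for ending hair growth, had 1.38 and 2.09 TPM (83 and 129 counts). Fgf22, which is known from work on synapse formation in the cerebellum, had 1.12 and 1.79 TPM, from only 11 and 18 counts. Fgf1, Fgf5 and Fgf22 were higher in replicate 2, and Fgf10 was higher in replicate 1.

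Fgf8 and Fgf17 were below 1 TPM at this age. Fgf8, the signal of the midbrain-hindbrain organizer, had 0.44 and 0.58 TPM (9 and 13 counts). Fgf17, its close relative, had 0.78 and 0.44 TPM (31 and 18 counts), and Fgf18 of the same subfamily was 11.6-fold higher than Fgf17 in the mean of the replicates. Fgf8 and Fgf17 could not be ordered, since their intervals overlapped and Fgf17 was higher in replicate 1 and Fgf8 in replicate 2. Against 63.5% of all protein-coding genes, 9 of 10 genes tied to the organizer reached 1 TPM in both replicates, and 4 reached 5 TPM. The highest were Gbx2 at 29.1 ± 1.70 TPM, Cnpy1 at 25.2 ± 6.14, Otx2 at 19.4 ± 3.13 and Pax2 at 10.1 ± 0.156, while En2 had 0.34 and 0.46 TPM. Which cells hold these genes at this age was not tested. Pax5 had 1.57 and 1.02 TPM and was the only gene with a mean of 1 TPM or more in the related lists that was over 2-fold apart between the replicates, on 42.9 and 19.2 counts.

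The remaining ligands below the minimum had from 0 to 38 counts. Fgf7, a mesenchymal ligand for IIIb receptors, had 0.63 and 0.56 TPM (38 and 33 counts), 4.14-fold below Fgf10 in the mean of the replicates. Fgf23, a hormone of bone, had 0.26 and 0.27 TPM, and Fgf21, a hormone of liver, had 0.05 and 0.09 TPM. Fgf16 had 0.08 and 0.10 TPM, and Fgf20 had 0 counts in replicate 1 and 1 in replicate 2. Fgf6, a ligand of skeletal muscle, had 5 counts in replicate 1 and 0 in replicate 2, the same side on which the muscle markers were high. The 95% counting interval of that difference included no difference, and the part of muscle tissue in it was not tested.

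The level of a few ligands depends on short gene models. The deposited annotation gives Fgf2 a longest transcript of 1240 bases, while GENCODE M21 holds one of 5973 bases. Fgf2 had 6 and 4 counts, and the 4 counts of replicate 2 were on a transcript that M21 assigns to Gm43439, so its 0.36 and 0.70 TPM come from different transcripts. Fgf22 has 489 bases in the deposited annotation and 2167 in M21, and 82 of its exon bases in M21 lie opposite to Rnf126, at 74.8 and 56.2 TPM. Fgf6 has 1232 and 4657 bases. Reads from the bases that the deposited annotation lacks are not in these counts. Fgf15 shares 761 exon bases with Gm26793 on the opposite strand, at 5.41 and 5.11 TPM, and whether counting used strand is not given. These lengths and overlaps were looked up after the levels were seen.

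The intracellular FGFs had the highest summed level of the member groups, 220 and 221 TPM, of which Fgf13 alone held 87.3% ± 1.11. Fgf13 (ENSMUSG00000031137.13, chromosome X, 59062145 to 59568071), which binds sodium channels and microtubules, had 194 and 191 TPM and ranked 808 of 21474 protein-coding genes. Fgf12 had 20.1 and 24.1 TPM, and Fgf11 had 6.03 and 5.61 TPM. Fgf13 was 8.75-fold above Fgf12 and Fgf12 3.78-fold above Fgf11 in the mean of the replicates. Deposited intervals were apart in both libraries for both pairs. The deposited annotation holds 1 Fgf12 transcript, of 3065 bases, while M21 holds 6, the longest of 4137 bases. Reads from Fgf12 bases that the deposited annotation lacks are not in its level. Of the 9 partners of intracellular FGFs listed, 8 reached 1 TPM in both replicates, against 63.5% of all protein-coding genes. The highest were the sodium channel subunits Scn3b at 132 ± 9.50 TPM, Scn2a at 38.1 ± 1.88 and Scn3a at 34.9 ± 4.50 and the scaffold Mapk8ip2 at 72.3 ± 2.26. Scn4b was below the minimum, at 0.69 and 0.51 TPM.

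Fgf13 RNA came from transcripts with different first exons, which encode different amino ends of the protein. Their starts fall into 3 positions, named here after the gene's direction as distal, middle and proximal to the shared exons, a grouping made after the values were seen. The distal transcripts held 76.5 and 84.5 TPM, the middle one 77.6 and 58.7 TPM, and the proximal ones 39.4 and 47.8 TPM. The middle transcript Fgf13-202 was the highest single transcript in both replicates, with 40.1% and 30.7% of the gene's TPM. The distal group was mostly short transcripts of 456 to 617 bases: Fgf13-206 had 28.2 and 22.2 TPM and Fgf13-205 28.1 and 26.9 TPM. Among the 3 coding transcripts that reach the last exon, the middle exon took 50.7% ± 10.9, the proximal 32.1% ± 4.12 and the distal 17.2% ± 6.73, so the order of the first exons depends on whether the short transcripts are counted. Fgf13 counts were 7751 and 8209, higher in replicate 2, while its TPM was higher in replicate 1. Fgf13-202, with the largest difference, and the short Fgf13-205 and Fgf13-206 were also higher in replicate 1 by TPM. Fgf13-201 and Fgf13-203 were higher in replicate 2.

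**Figure D2:**
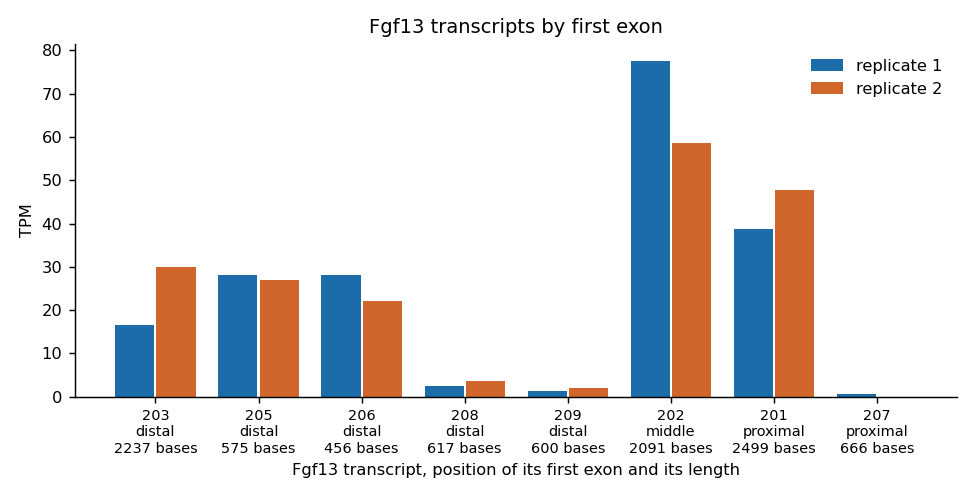
TPM (vertical axis) of each Fgf13 transcript with a value above 0, by transcript number, position of the first exon and length in the deposited annotation, in replicate 1 (blue) and replicate 2 (orange). Fgf13-202 is the tallest in both replicates, at 77.6 and 58.7 TPM, and the distal group is spread over 5 transcripts.

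The promoters at the middle and proximal first exons differ in base composition, and are printed because those exons lead the transcripts that reach the last exon. They are RefSeq windows on GRCm38.p6, minus strand, from 250 bases before to 50 after a start, with every CG in capitals. The proximal window is chrX:59134387-59134686, whose start is that of Fgf13-201, and the middle window is chrX:59166039-59166338, whose start lies 76 bases from that of Fgf13-202.
Fgf13 proximal: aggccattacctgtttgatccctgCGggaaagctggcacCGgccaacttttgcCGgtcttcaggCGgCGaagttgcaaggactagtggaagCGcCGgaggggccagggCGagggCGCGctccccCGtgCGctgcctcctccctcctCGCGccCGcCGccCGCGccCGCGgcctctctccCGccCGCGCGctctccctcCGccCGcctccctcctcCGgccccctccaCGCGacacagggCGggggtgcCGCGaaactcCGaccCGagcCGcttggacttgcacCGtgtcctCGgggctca
Fgf13 middle: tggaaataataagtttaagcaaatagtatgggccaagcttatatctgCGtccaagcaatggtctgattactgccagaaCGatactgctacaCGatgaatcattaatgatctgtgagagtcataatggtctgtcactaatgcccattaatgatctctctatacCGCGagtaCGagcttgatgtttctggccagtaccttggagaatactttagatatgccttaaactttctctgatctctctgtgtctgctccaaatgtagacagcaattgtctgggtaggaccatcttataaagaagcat
The proximal window holds 37 CG dinucleotides and 73.0% G and C, and the middle one holds 6 and 40.3%. The median over 32851 promoter windows of the table was 7 CG and 52.7%. Fewer CG than the proximal window were found in 94.4% of them, and fewer than the middle one in 43.6%. Not all 4 Fgf13 windows are printed. The window whose start lies 124 bases from that of the distal Fgf13-205 holds 40 CG and 74.3% G and C, more than the proximal one. A window 17501 bases from the start of Fgf13-203 holds 3 CG and 46.3%.

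The receptors were led by Fgfr3. Fgfr3 (ENSMUSG00000054252.13, chromosome 5, 33721674 to 33737068), the receptor known from neural progenitors and astrocytes, had 39.8 and 37.9 TPM. Fgfr1 (ENSMUSG00000031565.13, chromosome 8, 25513654 to 25575718), which is known from neurons and progenitors, had 29.1 and 26.5 TPM. Fgfr2 (ENSMUSG00000030849.13, chromosome 7, 130162451 to 133123350), known from glia and choroid plexus among other cells, had 23.5 and 20.5 TPM. Fgfrl1, which lacks the kinase domain, had 3.44 and 3.18 TPM, and Fgfr4 had 1.35 and 1.06 TPM. In replicate 2 the coding transcript Fgfr4-201 was below 1 TPM, at 0.85. The gene passed the minimum there through Fgfr4-203, a processed transcript of 438 bases with 0.22 TPM on 1.88 counts. The order of the receptors was the same in both replicates, and the deposited intervals were apart in both for all 6 receptor pairs compared. Fgfr3 held 43.3% ± 1.16 of the TPM of the 4 kinases, Fgfr1 30.9% ± 0.134, Fgfr2 24.5% ± 0.879 and Fgfr4 1.34% ± 0.146. These are shares of tissue RNA and say nothing of which cells hold which receptor. In M21, Fgfr3 shares 998 exon bases with G630022F23Rik on the opposite strand, for which no level is given. Fgfr1 shares 164 with Gm16159 on the opposite strand, at 0.05 and 0.51 TPM. Whether counting used strand is not given, and the part of these overlaps in the levels was not tested.

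Part of the Fgfr2 level rested on a transcript that starts in another gene. Fgfr2-217 had 5.81 and 5.19 TPM, or 24.7% and 25.4% of the gene. It has 7 exons, of which 5 are in Fgfr2 and the first 2 lie 2.82 Mb upstream of the rest of the gene, inside exons of Ctbp2 on the same strand, whose own level was 48.5 and 37.6 TPM. Those exons hold 314 bases. Without this transcript Fgfr2 had 17.7 and 15.3 TPM, still below Fgfr1 in both replicates. How its reads were divided between the genes was not tested.

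IIIc transcripts, with that exon alone of the pair, had more TPM than IIIb transcripts in all 3 receptors and both replicates. Only Fgfr2 had transcripts with IIIb but not IIIc in both replicates. Fgfr1 had 24.0 and 19.8 TPM of IIIc transcripts, and 0 and 0.10 TPM of IIIb. Its transcript Fgfr1-208, which holds both exons and is counted apart, had 0.6 and 0.31 TPM. Fgfr3 had 34.7 and 34.7 TPM of IIIc, and 1.33 and 0 TPM of IIIb, from the single transcript Fgfr3-211 (131 and 0 counts). Fgfr2 had 10.7 and 8.93 TPM of IIIc, and 2.21 and 2.22 TPM of IIIb (137 and 142 counts). As a share of the TPM of the IIIb and IIIc classes, IIIc took 99.7% ± 0.355 in Fgfr1, 98.2% ± 2.61 in Fgfr3 and 81.5% ± 2.01 in Fgfr2. The share of Fgfr2 was lower than those of Fgfr1 and Fgfr3 in each replicate, at 82.9% and 80.1%. Transcripts with neither exon, which are mostly retained introns and partial models, held 19.7% ± 5.73 of the TPM of Fgfr1, 45.3% ± 0.405 of that of Fgfr2, which includes Fgfr2-217, and 9.01% ± 0.650 of that of Fgfr3. Over all of a gene's TPM, IIIc transcripts held 44.6% ± 1.43 in Fgfr2.

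**Figure D3:**
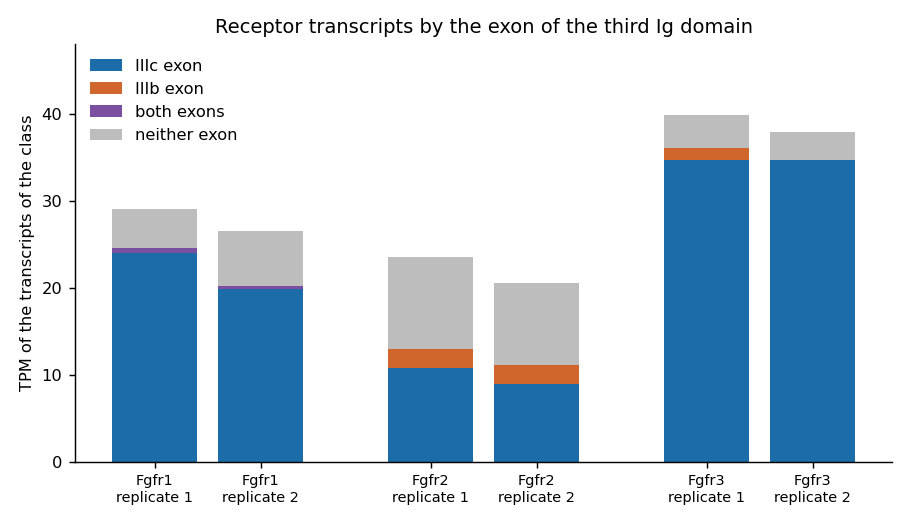
TPM of the transcripts of Fgfr1, Fgfr2 and Fgfr3 in each replicate, stacked by whether they hold the IIIc exon (blue), the IIIb exon (orange), both (purple) or neither (grey). Fgfr2 has an orange segment in both replicates, 2.21 and 2.22 TPM, and the largest grey segments.

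Of 5 splicing regulators of these exons, the epithelial factors Esrp1 and Esrp2, which promote IIIb, were near 0 and the other 3 were abundant. Esrp1 had 0.01 and 0.06 TPM and Esrp2 had 0.23 and 0.14 TPM. Ptbp2 had 129 ± 7.42 TPM, Rbfox2 69.7 ± 12.3 and Ptbp1 58.9 ± 10.7. Which exon each of these 3 favours in this tissue was not tested. Of 6 epithelial markers 4 reached 1 TPM, with a summed level of 24.7 and 24.1 TPM, while Krt5 and Krt14 were below. All 6 choroid plexus markers did, with a sum of 1546 and 1908 TPM. The part of these cells in the IIIb transcripts of Fgfr2 was not tested.

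The exon of the first Ig domain was held by a larger share of Fgfr1 than of Fgfr2. Skipping of this exon gives receptors with fewer Ig domains, which are known to bind FGFs more tightly. Among IIIb and IIIc transcripts that span it, those with the exon held 77.9% ± 2.63 of the TPM in Fgfr1 and 26.0% ± 1.83 in Fgfr2. Fgfr2-207, which skips it, had 7.20 and 5.34 TPM, and Fgfr2-215, which has it, 3.53 and 2.75 TPM. In Fgfr3 no transcript of these classes in the annotation skips it, so there is nothing to compare. This exon was examined after the values were seen.

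Of 28 coreceptors and extracellular partners, 27 reached 1 TPM in both replicates, against 63.5% of all protein-coding genes. The related lists hold genes picked for their tie to the pathway with earlier results known, so such counts describe the lists alone. The highest were the heparan sulfate proteoglycans Sdc3 at 142 ± 21.8 TPM, Gpc2 at 106 ± 16.0 and Agrn at 88.7 ± 14.0. The sulfatase Sulf2, which removes sulfate groups from heparan sulfate, followed at 82.0 ± 19.4. The Klotho coreceptors of endocrine FGFs were at the low end, with Kl at 1.29 and 1.01 TPM and Klb at 0.06 and 0.08 TPM (5 and 7 counts). Fgf15, which signals through Klb in the liver, was measured at 17.6 ± 0.643 TPM in tissue where Klb was close to 0. All 30 signal transducers reached 1 TPM, among them Araf at 342 ± 23.6 TPM, Map2k2 at 198 ± 2.35 and Grb2 at 152 ± 5.03.

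The 8 feedback inhibitors and target factors that had a row, Spry3 not among them, all reached 1 TPM in both replicates. The share among all protein-coding genes was 63.5%. Spry2, an inhibitor of receptor signalling to RAS, had 29.4 and 28.6 TPM, and Dusp6, a phosphatase of ERK, had 27.9 and 26.3 TPM. Their deposited intervals overlapped, so they could not be ordered. Spry4 had 7.02 and 5.96 TPM, and Spry1 had 5.79 and 5.33 TPM. Spry1 shares 710 exon bases in M21 with Gm42922 on the opposite strand, for which no level is given. Spry2 was 4.48-fold above Spry4 and 5.22-fold above Spry1, with intervals apart in both replicates. Spred1 had 6.42 and 6.23 TPM and Spred2 had 5.65 and 6.17 TPM, with overlapping intervals.

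Etv5 and Etv4 are ETS factors that ERK induces. Etv5 had 29.8 and 25.1 TPM and Etv4 had 18.2 and 18.1 TPM, and Etv5 was 1.5-fold higher in the mean. By TPM, protein-coding transcripts gave 70.6% ± 0.975 of the Etv4 level, the lowest such share among the 24 members above the minimum. The rest came from short processed transcripts such as Etv4-207, of 882 bases, at 1.85 and 2.07 TPM. TPM corrects for length, so short transcripts weigh more in this share than in counts. Etv4-207 had 36.3 and 41.6 of the gene's 806 and 833 counts. By the TPM of coding transcripts alone, Etv5 was higher than Etv4 by 1.09 on the log2 scale against 0.59 for all transcripts. The median coding share by TPM of the 24 members was 100%, and 4 were below 90%. The order of members by a coding share of counts is not given here.

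Against 63.5% of all protein-coding genes, 10 of 11 further feedback and target genes of ERK reached 1 TPM in both replicates. They were led by the phosphatases Dusp4 at 31.9 ± 9.40 TPM, Dusp1 at 23.5 ± 1.24 and Dusp2 at 13.4 ± 1.27 and by the related ETS factor Etv1, at 23.5 ± 5.47. Dusp9 was below, at 0.56 and 0.70 TPM. None of these RNA levels measures ERK activity.

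Within the tissue, 16 of 20 pairs of members compared had deposited intervals that did not overlap in either replicate. The pairs were chosen with earlier results known and include far ones, such as Fgf15 over Fgf21 at 263-fold. The share among other pairs of genes was not computed, so the count describes these pairs alone. The 4 that overlapped in at least 1 replicate were Fgf1 and Fgf2, Fgf8 and Fgf17, Spred1 and Spred2, and Dusp6 and Spry2. The intervals are the authors' and cover the fit within a library, not the spread between pools. For Fgf1 the deposited TPM lay below its own interval in both libraries.

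**Figure D4:**
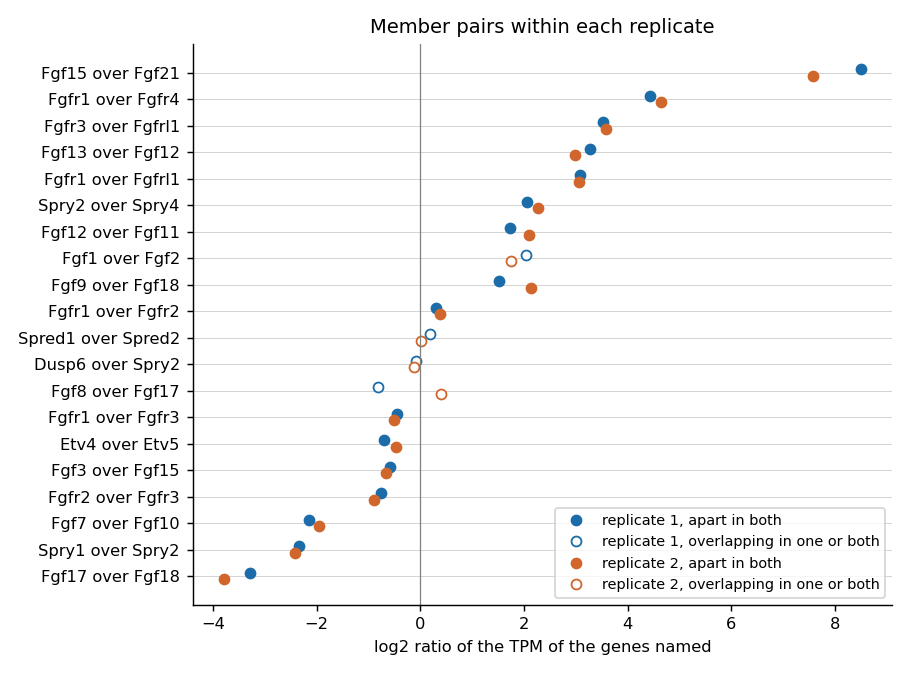
Log2 ratio of the TPM of the genes of each pair in replicate 1 (blue) and replicate 2 (orange), filled where the deposited intervals were apart in both replicates (16 pairs) and open where they overlapped in at least 1 (4 pairs). Fgf8 over Fgf17 is the only pair of the 20 whose replicates fall on opposite sides of 0.

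Between the replicates none of the 24 members with a mean of 1 TPM or more was over 2-fold apart, after TMM scaling of counts. Among all genes above that mean 4.5% were (722 of 16037), and among protein-coding genes 1.51% (209 of 13843), so a count of 0 in 24 was near the background. At 1.5-fold 3 members passed, against 4.49% of protein-coding genes: Fgf1 was 1.68-fold higher in replicate 2, Fgf22 1.62-fold and Fgf5 1.57-fold. All ratios are relative to TMM scaling: when libraries were scaled by spike-in totals instead, the median gene moved up by 0.45 in log2 and 23 of the 24 members were higher in replicate 2. The log2 ratio of Fgf1 had a counting interval of 0.44 to 1.06 and that of Fgf5 one of 0.24 to 1.07. The interval of Fgf22 was -0.44 to 1.95 and included no difference.

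These 3 are low ligands. Fgfr4 was the member furthest higher in replicate 1, 1.5-fold (109 and 72 counts), followed by Fgf10 at 1.24-fold. Fgf18 was 1.23-fold higher in replicate 1, with an interval that included no difference. Muscle and cartilage markers were higher in the same replicate, as were all 6 meningeal fibroblast markers, with a summed level of 754 and 413 TPM. All 6 astrocyte markers were higher in replicate 2 by scaled counts, with a sum of 646 and 819 TPM, although Slc1a3 was lower there by TPM, at 222 and 214. All 6 neuron markers were also higher in replicate 2 by scaled counts, with a sum of 4419 and 4808 TPM. The same held for 5 of 6 choroid plexus markers and 5 of 6 Purkinje cell markers. The part of these markers' cells in the members' values was not tested. Among the abundant members, Fgf12 was 1.24-fold and Fgf9 1.18-fold higher in replicate 2, and Fgfr2 1.16-fold and Etv5 1.15-fold higher in replicate 1. Fgfr3 and Spry2 differed by 1.01-fold each.

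Counting intervals excluded no difference for 12 of the 24 members, 6 in each direction, and for 53.2% of protein-coding genes. The intervals cover counting error alone, and both pools are of the same group. The median log2 ratio of the members was -0.03, and the median size of the ratio was 0.16, against 0.13 over protein-coding genes.

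**Figure D5:**
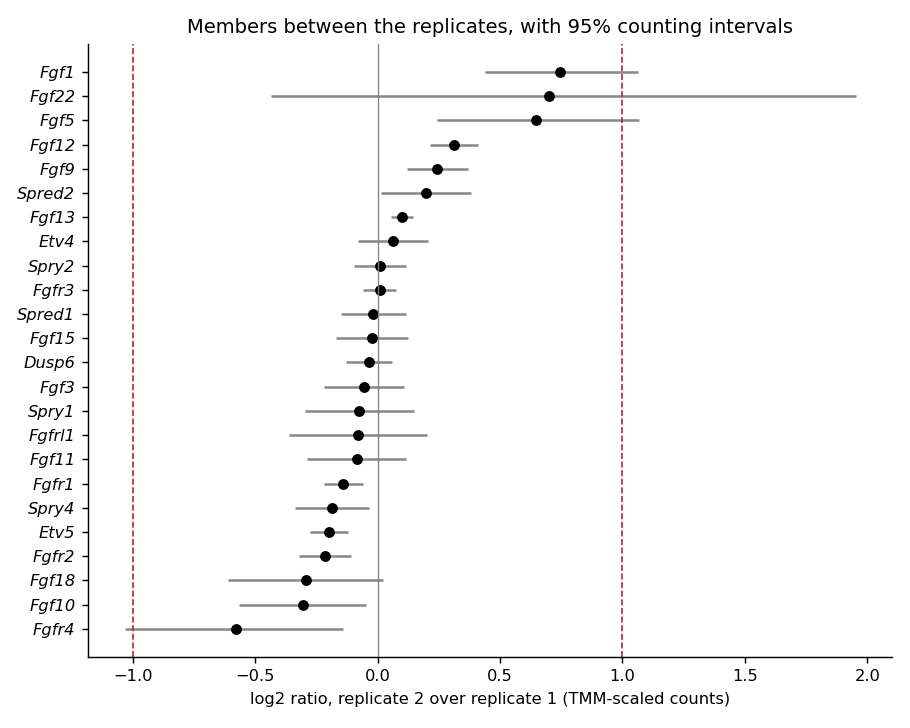
Log2 ratio of replicate 2 over replicate 1 (points) with its 95% counting interval (bars) for the 24 members with a mean of 1 TPM or more, in order of the ratio. Dashed lines mark 2-fold, and all points lie between them, from Fgfr4 at -0.58 to Fgf1 at 0.75.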

How the data were processed

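The authors deposited, for each replicate, gene and transcript tables with expected counts (reads assigned by their model), TPM, FPKM and the percent of a gene's TPM held by each transcript, per the file headers. Per the labels, the assembly was mm10, and per the notes deposited with each sample the annotation was GENCODE M4 and each replicate was quantified on its own. No source used here names the aligner, the quantification tool or the use of strand. The deposited interval bounds on TPM and FPKM are treated as scores, since their level is not stated. TPM is scaled over all features, spike-ins included.

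GENCODE M21 (GRCm38, identical in build to mm10) gave symbols, gene types and positions, with which 42462 of 43346 Ensembl identifiers matched. Receptor transcripts were classed by the exact M21 exon they hold. Some models changed between the annotations. Among IIIb and IIIc transcripts that span the exon of the first Ig domain, the length was unchanged for 4 of 6 in Fgfr1. It was unchanged for 14 of 15 in Fgfr2 and 5 of 6 in Fgfr3. Those that differ include Fgfr1-203 (3259 bases deposited, 3789 in M21) and Fgfr2-211 (3053 and 4311), which enter the shares above. Expected counts were rounded, and edgeR 4.0.16 under R 4.3.3 gave TMM factors, spike-ins left out, with a prior count of 0.5. Ratios are of replicate 2 over replicate 1, for genes whose mean TPM was at least 1, and called means past 2-fold. Exact 95% Clopper-Pearson counting intervals came from SciPy 1.17.1 and cover counting error only. A 0 entered these intervals as 0, which leaves the bound on that side open. Separately, a 0 was read as allowing up to 3 counts. DESeq2 1.42.0 gave alternative size factors. Exons were aligned with Biopython 1.88. On simulated counts for 43346 genes, 100% of genes changed 4-fold, 10% of those changed 1.5-fold and 0.118% of 13608 unchanged genes passed 2-fold. The spread between simulated libraries was assumed, not estimated from these pools, and genes with few counts were not judged. These shares therefore do not give the error rate of the pools or of the low members.

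The members, pairs, lists and tests were chosen with earlier results of these data known. All members are named. Of each related list up to 4 genes with the highest mean TPM and any past 2-fold are named, and of the markers those beside a member's result. Some genes of these lists, which enter their counts, and some exon sequences are not reported here. En2, Dusp9, Klb, Kl, Scn4b, Esrp1 and Esrp2 were named after their values were seen. The overlapping genes Rnf126, Gm26793, Gm43439, Ctbp2, G630022F23Rik, Gm16159 and Gm42922 were named after the members' levels were seen. Replicates are pools of embryos, and n = 2 gives a spread but no test.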

Additional observations from a re-analysis of the deposited data

How the results depend on the processing

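The count of members at 1 TPM in both replicates, 24, was 25 at 0.5 TPM, 18 at 5 TPM and 20 by FPKM. It was 23 over protein-coding transcripts, where Fgfr4 dropped out, and 24 in either replicate alone. The count for the related lists, 87 of 93, ran from 73 at 5 TPM to 89 at 0.5 TPM. The organizer genes among them fell from 9 to 4 at 5 TPM and to 6 by FPKM. The 16 separated pairs became 13 by posterior mean TPM with a 1.5-fold limit, 14 over protein-coding transcripts with that limit, 16 by FPKM intervals and 16 to 17 with a replicate left out. No member was past 2-fold under 7 of the alternatives in scaling, unit, prior count and filter. Scaling by spike-in totals gave 3, Fgf1, Fgf5 and Fgf22. This scaling moved the median of all genes by 0.45 on the log2 scale, and 23 of 24 members were then higher in replicate 2, with a median of 0.42. A limit of 1.5-fold also gave 3. By deposited TPM, 4 ratios lay on the other side of 0 from those by counts: Fgf13 at -0.02 against 0.10, Fgfr3 at -0.07 against 0.01, Spry2 at -0.04 against 0.01 and Etv4 at -0.01 against 0.06.

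The IIIc share over all of a gene's TPM, with unclassed transcripts in the total, was 78.5% in Fgfr1, 44.6% in Fgfr2 and 89.3% in Fgfr3. By expected counts the Fgfr2 share was 86.8%. With a replicate left out the shares were 99.5% to 100% in Fgfr1, 80.1% to 82.9% in Fgfr2 and 96.3% to 100% in Fgfr3. Chosen after the data were seen, shares by expected counts of the exon of the first Ig domain were 82.8% in Fgfr1 and 23.9% in Fgfr2, and those of the Fgf13 first exons were 43.4% middle, 33.1% proximal and 23.5% distal. The cause of these shifts was not tested. Leaving out a replicate leaves no ratio between the libraries. No paired analysis was possible because the single group has no second group to pair with. Depth limits Fgf2, Fgf4, Fgf6, Fgf8, Fgf16, Fgf20, Fgf21, Fgf22 and Fgf23, each with under 20 counts in both libraries.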
